A study of Mus musculus with 2 samples.

Results

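Epithelial cells can loosen their contacts and take on mesenchymal features in a programme called the epithelial-to-mesenchymal transition (EMT). The 10 genes described here are 6 transcription factors that can drive it (Snai1, Snai2, Twist1, Twist2, Zeb1 and Zeb2), 3 classical cadherins that hold neighbouring cells together (Cdh1, Cdh2 and Cdh3, encoding E-, N- and P-cadherin) and Vim, which encodes the intermediate filament protein vimentin of mesenchymal cells. They were chosen by name. Every non-control probe that both scanner files list under 1 of these names was taken, which gave 13 of the 55676 probes tested on the array and 10 of 34820 names. No further probe named 1 of these genes in its description (0 probes), and the RefSeq accession of 12 of the 13 probes matched the same symbol, the exception being a Zeb2 probe designed to an Ensembl transcript.

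The samples were sheets of dorsal epidermis from FVB/N pups, with the age given as postnatal day 4.5 in the labels. Each of 2 arrays paired a K14-rtTA;TRE-Sox11-FLAG pup, in which SOX11 with a FLAG tag is induced, with a K14-rtTA littermate as the control. K14-rtTA places the doxycycline-dependent activator in keratin 14 positive cells, so the controls carried the activator too, and both pups of a pair received doxycycline (Dox) for 12 h before the epidermis was split from the dermis with dispase. The K14 promoter confines induction to the cells in which it is active, while the RNA came from the whole sheet. Control RNA was labelled with Cy3 and SOX11-induced RNA with Cy5 on both arrays, so a positive log2 ratio (Cy5 over Cy3) means more signal in the SOX11-induced epidermis, and for any single probe the dye and the genotype cannot be told apart. Both arrays lay on the same slide.

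SNAI, TWIST and ZEB proteins bind DNA and are best known for repressing Cdh1, while GRHL, OVOL and ESRP proteins keep cells epithelial. SNAI2, also called Slug, is present in normal basal keratinocytes and in migrating keratinocytes at wound edges, where it is associated with loosened contacts without a full loss of epithelial identity. In skin, E-cadherin is found throughout the epidermis, P-cadherin in the basal layer and the hair matrix, and vimentin mainly in fibroblasts, leukocytes, endothelial cells and melanocytes.

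The probes that the results turn on are given by their first 30 bases, read from the array files and written 5′ to 3′. No base is in capitals, as no motif was searched in them. The positions are those of the whole probe on mm9, each on the plus strand. The Snai2 probe lay at chr16:14709361-14709420, the Cdh3 probe at chr8:109079933-109079992, the Cdh1 probe at chr8:109193812-109193871 and the Vim probe at chr2:13504232-13504291. Whether they lie in coding or untranslated exon sequence is not given in the sources used here.
Snai2: gtgaggtacggttaatagccacgcctatat
Cdh3: tattttccctgttatgtgctgtagatggag
Cdh1: acattctaacgggaaaaaggagacaagacc
Vim: gcagtttttcaggagcgcaagatagatttg

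The GC content of the 13 whole probes ran from 35.0% for the Cdh1, Twist1 and 2 of the Zeb2 probes to 46.7% for the other Zeb2 probe, and the median over all 55681 probe sequences was 43.3%. A stop codon stood in all 3 forward reading frames of 2 of the 13 probes, those for Cdh3 and for Zeb2 at position 44840038, against 20.7% of all probes. The letters AATAAA were present in 2 of the 13 probes, for Twist1 and Cdh2 (position 16747386), and in 10.1% of all probes. The 60-base probe designed to the Ensembl transcript of Zeb2 matched a RefSeq promoter window of that gene exactly. It covered bases -176 to -117 relative to an annotated start in the minus-strand window at chr2:45110228-45110527 of GRCm38.p6, upstream of that start.

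On each array, 59305 non-control spots were read, and between 37.5% and 42.6% of them were well above background in a channel. The 12 keratinocyte markers were all above background. Of 13 dermal fibroblast markers, 6 were above it on both arrays and 6 were above it nowhere. An exact sign-flip test of 2 pairs cannot give a p under 0.5, so every call below rests on limma's moderated variances. The labels could not be checked with Sox11 itself, because its 2 probes were not well above background in any channel on either array and it is not given whether the transgene carries their target sequence.

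Of the 13 probes, 3 gave a signal well above background in all 4 channel readings (Snai2, Cdh3 and Vim), 1 Cdh2 probe was so in the SOX11-induced channel alone, and 8 were so in no channel on either array. The remaining probe, for Zeb2, passed in the SOX11-induced channel of pair 2 only. The expression of Snai1, Twist1, Twist2, Zeb1 and Cdh1 could therefore not be read from these arrays in either genotype, and a low signal at these probes does not show that the transcripts are absent.

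With an adjusted p under 0.05 as the call, 1 of the 13 probes rose and 0 fell, compared with 2.9% and 1.35% of all 55676 probes. Where each array had a channel above background, which held for 21782 probes, 6.61% rose and 3.11% fell, and the members held 4 such probes, of which Snai2 alone rose. Without adjustment, 3 member probes had a limma p under 0.05 in the rising direction and 0 in the falling direction. Over all 34820 genes with 1 probe each, 4282 rose and 3579 fell by that measure. Among the 3, Snai1 and the Cdh2 probe at 16747386 were above background in no channel. No member passed the threshold worded in the study's methods, which adds a log2 ratio past 1.5 and which 0.451% of all probes passed in either direction. The median log2 ratio of the 13 probes was 0.10, against 0.00056 over all genes with 1 probe each.

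**Figure D1:**
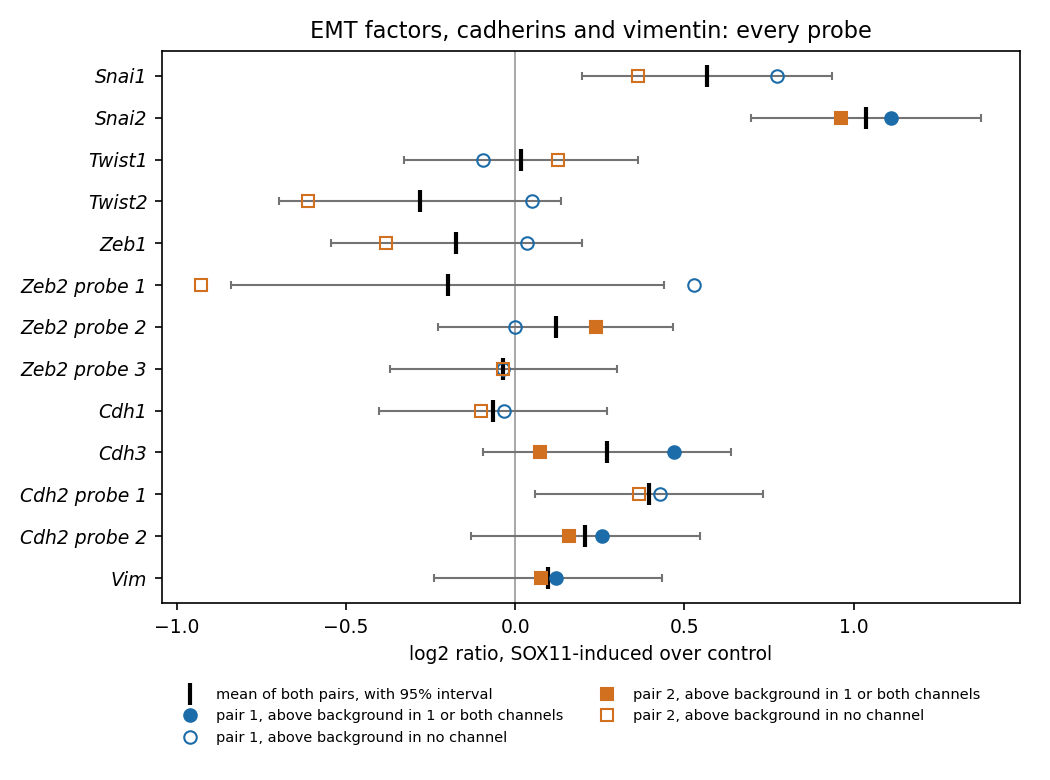
Log2 ratio of SOX11-induced over control epidermis (x axis) for each of the 13 probes (y axis, probes of a gene in order of position), with circles for pair 1, squares for pair 2, filled where at least 1 channel was above background, a bar for the mean and whiskers for its 95% interval from the limma fit (n = 2 pairs). Snai2 lies furthest to the right with filled symbols at 1.11 and 0.96, while most other members have hollow symbols scattered around 0.

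Snai2 was the 1 member called, and it rose. Its log2 ratio was 1.11 in pair 1 and 0.96 in pair 2, so both pairs were higher with SOX11 and lay close together. The mean of 1.04 ± 0.104 (SD, n = 2) corresponds to a 2.05-fold increase, with a 95% interval of 0.70 to 1.38 on the log2 scale and an adjusted p of 0.00629 by limma. The spot was bright in every channel. Its brightness in scanner units was 449 and 532 in the controls of pairs 1 and 2, over local backgrounds of 21 and 23, and 1930 and 2336 in the SOX11-induced channel, over backgrounds of 60 and 58. The raw Cy5 and Cy3 brightness is not on a common scale. After normalization the channel signals were 9.41 and 9.49 (log2) in the controls and 10.52 and 10.45 in the SOX11-induced pups.

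The size of the Snai2 increase was moderate among the genes that responded. Of the probes above background, 2.88% had a mean log2 ratio at or above that of Snai2, and by adjusted p it stood at rank 472 among the probes that rose. The call was lost with the processed signals of the scanner software, where the log2 ratio was 0.98 with an adjusted p of 0.244 and 0 of all probes passed. The unadjusted limma p of Snai2 was 0.0056 there.

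Melanocytes and dermal cells, which can also express Snai2, were followed by their own markers. The summed linear signal of 9 melanocyte markers, none of them at background throughout, went from 10584 in the control to 14263 with SOX11 in pair 1 and from 9256 to 9341 in pair 2. That of the 13 dermal fibroblast markers went from 1518 to 1189 in pair 1 and from 1630 to 1897 in pair 2. The median log2 ratio was 0.52 in pair 1 and -0.00045 in pair 2 for the melanocyte markers, of which 9 were higher in pair 1. It was -0.11 and 0.15 for the fibroblast markers, 6 of which were at background everywhere and 6 above it on both arrays. The part of these cells in the Snai2 values was not tested.

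Over the 2 arrays, the genes whose pair of log2 ratios lay nearest to that of Snai2, among 10626 genes readable in every channel, were Dock4, Zfp867 and Tmsb4x. Dock4, an activator of small GTPases, measured 1.11 and 0.95. Zfp867, which encodes a zinc finger protein, measured 1.09 and 0.99. Tmsb4x, which encodes the actin-sequestering peptide thymosin beta 4, measured 1.08 and 0.98. The distance in the plane of both pairs was 0.0138, 0.0341 and 0.0376, respectively, and with 2 values per gene such nearness is only a description.

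**Figure D2:**
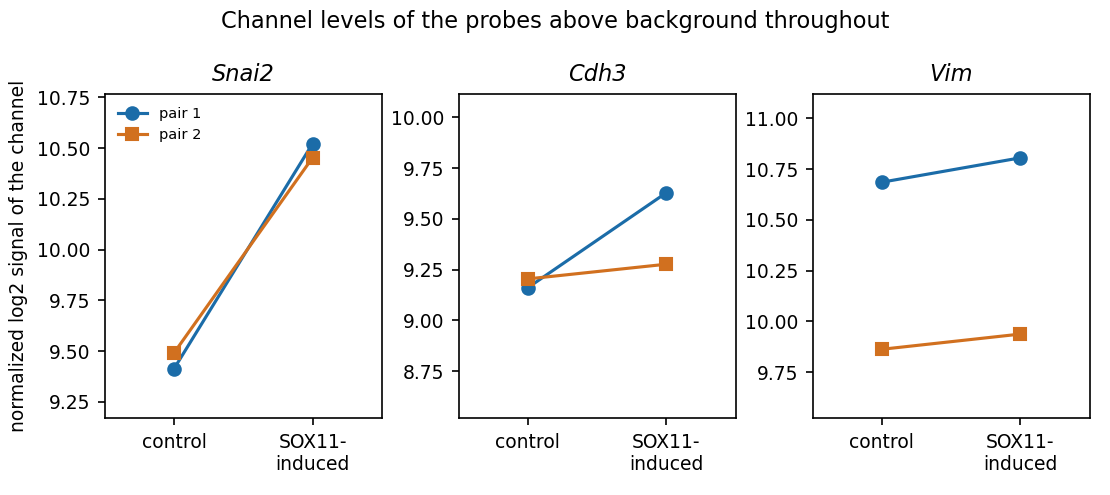
Normalized log2 signal (y axis, each panel spanning the same number of log2 units) in the control and SOX11-induced channels of the probes for Snai2, Cdh3 and Vim, with a line for each of the 2 pairs. Both Snai2 lines rise steeply, from 9.41 and 9.49 to 10.52 and 10.45, Cdh3 rises in pair 1 more than in pair 2, and the Vim lines are nearly flat but lie at different levels.

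Snai1, the closest relative of Snai2 on this list, was not well above background anywhere. Its spot measured 29.7 and 38.4 in the controls over backgrounds of 23 and 25, and 72.0 and 72.4 in the SOX11-induced channel over backgrounds of 60 and 57. The log2 ratios of 0.77 and 0.36 are ratios of signals near background and give no fold. Their mean of 0.57 did not pass the test (adjusted p = 0.0901, limma).

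The TWIST factors, helix-loop-helix proteins of mesenchymal cells, gave no readable level. Twist1 had log2 ratios of -0.10 and 0.13 and an adjusted p of 0.965 by limma. Twist2 had ratios of 0.05 and -0.61 (adjusted p = 0.42, limma), so the pairs pointed in opposite directions. The study lists Twist2 among genes that SOX11 and SOX4 directly and positively regulate. That list came from loss of both factors in embryonic epidermis and keratinocytes and from binding data, not from SOX11 induction. With the probe at background, these arrays cannot show whether Twist2 responded. Neither TWIST probe was well above background in any of its 4 channel readings.

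The ZEB factors, zinc finger and homeodomain repressors, were no easier to read. Zeb1 measured 0.03 and -0.38 at its 1 probe (adjusted p = 0.589, limma). The 3 Zeb2 probes differed in what they gave. The probe at 44840038 swung from 0.53 to -0.93 between pairs, the widest spread of any member (SD 1.03, n = 2), on signals that were not above background. The probe at 44842774 measured -0.00015 and 0.24 and passed background only in the SOX11-induced channel of pair 2. The probe in the promoter window measured -0.03 in pair 1 and -0.04 in pair 2. None of the 3 passed the test, the adjusted p-values by limma being 0.733, 0.703 and 0.92.

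E-cadherin should be abundant in epidermis, yet the Cdh1 probe gave no usable signal. The array carried this probe in 10 spots, 1 of 432 probes with more than 1 spot, and in each of the 4 channel readings 0 of the 10 were well above background. In the controls the spots measured 34.8 to 45.7 in pair 1 over backgrounds of 19 to 24, and 33.2 to 47.0 in pair 2 over backgrounds of 20 to 25. In the SOX11-induced channel they measured 59.7 to 74.6 over backgrounds of 54 to 63, and 61.4 to 77.1 over backgrounds of 56 to 62. The log2 ratios of single spots ran from -0.43 to 0.49 in pair 1 and from -0.31 to 0.27 in pair 2, which is the noise of a probe near background. The averaged ratios were -0.03 and -0.10, with a mean of -0.07 and an adjusted p of 0.84 by limma. These arrays thus hold no measurement of whether E-cadherin mRNA followed the increase in Snai2.

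**Figure D3:**
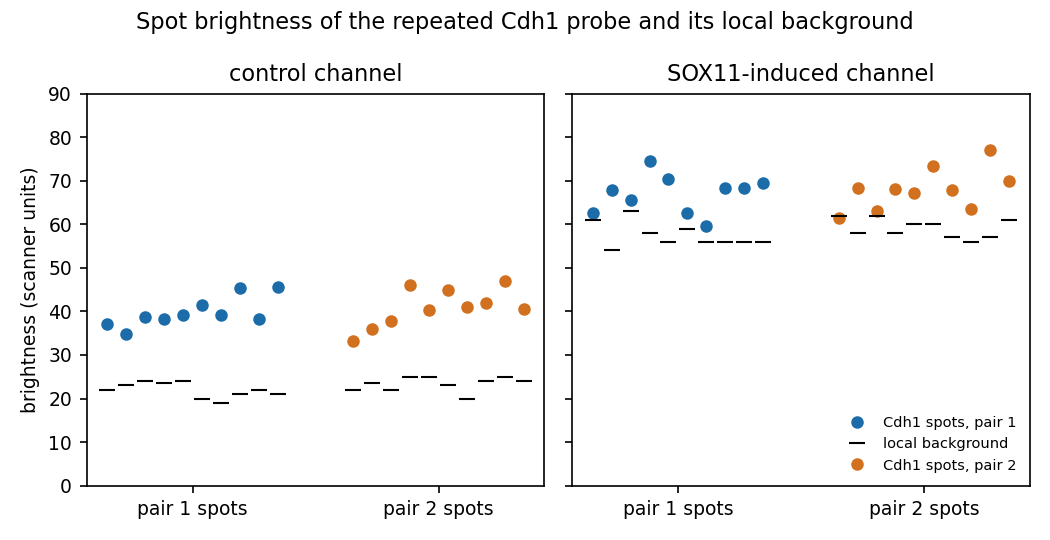
Brightness in scanner units (y axis) of the 10 spots of the Cdh1 probe on each array (points, 1 column per spot) and the local background of each spot (black dashes), for the control and SOX11-induced channels. The brightest control spot is at 47.0 and the brightest SOX11-induced spot at 77.1, and in the latter channel 1 spot of pair 2 lies just under its background.

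P-cadherin was readable. The log2 ratio at the Cdh3 probe was 0.47 for pair 1 and 0.07 for pair 2, above 0 in both but by very different amounts. The mean of 0.27 ± 0.280 (SD, n = 2) did not pass the test (95% interval -0.10 to 0.64, adjusted p = 0.378 by limma), and the upper end of the interval corresponds to a 1.56-fold increase. With median centring, which moved the median of the probes above background to 0.53, the mean was 0.88 and passed the test (adjusted p = 0.003, limma). The control channels of the pairs were at nearly the same level, 9.16 and 9.20 (log2), and the SOX11-induced channels at 9.63 and 9.28.

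Hair follicle markers differed between the pairs in the same direction as Cdh3. Of 14 hair follicle matrix and shaft markers, 14 were higher with SOX11 in pair 1 (0.19 to 2.46, median 1.83) and 13 were lower in pair 2 (-0.46 to 0.14, median -0.22). Their summed linear signal was 38624 in the control and 177762 in the SOX11-induced channel of pair 1, and 322625 and 260714 in pair 2, so the controls themselves differed most. Of the 14, Shh was not above background in any channel. The part of follicle content in the Cdh3 values was not tested, and in such bulk tissue fewer cells of a type and less RNA per cell cannot be told apart. The Snai2 ratio was 1.11 in pair 1 and 0.96 in pair 2, and the part of follicle content in it was not tested.

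**Figure D4:**
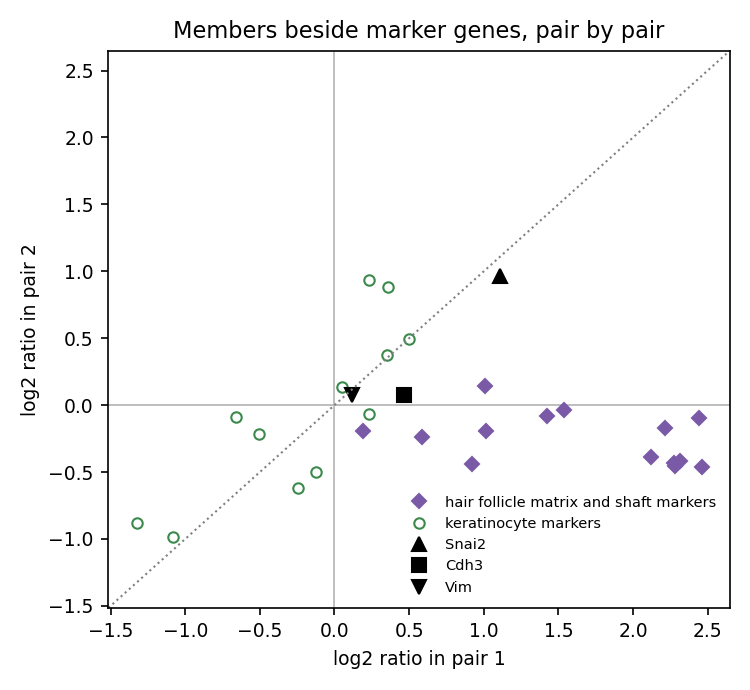
Log2 ratio in pair 1 (x axis) against pair 2 (y axis) for Snai2, Cdh3 and Vim (black symbols), 14 hair follicle matrix and shaft markers (diamonds) and 12 keratinocyte markers (open circles), with equal ratios on the dotted line. The hair follicle markers lie to the right near or below 0 in pair 2, Cdh3 lies below the dotted line on the same side, and Snai2 lies close to the line at 1.11 and 0.96.

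N-cadherin, the cadherin of mesenchymal and neural cells, has 2 probes on the minus strand of chromosome 18. The probe at 16747559 was above background in the SOX11-induced channel on both arrays and in the control channel on neither. Its measured log2 ratios were 0.26 and 0.16, with a 95% interval for the mean of -0.13 to 0.55. With the control raised to the lowest signal well above background where its own was lower, the SOX11-induced level was 1.11-fold the control. That fold is a point value and sets no lower limit. The change did not pass the test (adjusted p = 0.466, limma). The probe at 16747386 measured 0.43 and 0.36 on signals that were not above background (adjusted p = 0.174, limma). Both probes were higher in both pairs, and neither was called.

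Vim showed little difference between genotypes. Its log2 ratios were 0.12 and 0.07, with a mean of 0.10 ± 0.032 (SD, n = 2), a 95% interval of -0.24 to 0.43 and an adjusted p of 0.753 by limma. The upper end of the interval corresponds to a 1.35-fold increase. With median centring the mean was 0.74 and passed the test (adjusted p = 0.00569, limma), and with processed signals it was -0.015, so this limit holds for the loess values alone. The level of the probe differed more between pairs, and so between arrays, than between genotypes, at 10.69 (log2) in the control and 10.81 in the SOX11-induced pup of pair 1, and 9.86 and 9.94 in pair 2. The summed linear signal of the 13 leukocyte markers also differed between pairs, at 38386 and 31382 in pair 1 and 13420 and 11017 in pair 2. Within pairs, 10 of the 13 were lower with SOX11 in both and 1 was higher in both (median log2 ratio -0.24). Mcpt4 alone among them was not above background anywhere. The dermal fibroblast markers, whose sums ran from 1189 to 1897, had Lum, Pdgfra, Pdgfrb, Fbn1, Dpt and Crabp1 not above background in any channel. Col1a1, Col1a2, Col3a1, Col5a1, Col6a1 and Dcn were above it in every channel. Only Dcn among the fibroblast markers was called, and it was lower with SOX11 (mean -0.79, adjusted p = 0.0276, limma). The part of these cell types in the Vim level was not tested.

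The wider pathway was described by lists with 1 probe per gene. Over all 34820 genes, 3.42% rose and 1.72% fell at an adjusted p under 0.05, and the median log2 ratio was 0.00056. At an unadjusted limma p under 0.05, 4282 of them rose and 3579 fell. Among 23 other EMT and mesenchymal transcription factors, 12 were above background, 2 rose, 0 fell and the median was 0.03. The 2 were ETS factors downstream of growth factor signalling, Etv4 (2.71 and 1.48, mean 2.09, adjusted p = 0.00236) and Etv5 (1.60 and 1.59, mean 1.59, adjusted p = 0.000624 by limma). Snai3, Foxc2, Prrx1 and 7 more of the list were not above background in any channel.

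Factors that guard the epithelial state were mostly readable and mostly not called. Of 18 measured, 14 were above background, 0 rose and 1 fell, with a median of 0.07. The gene that fell was Gata3, a regulator of hair and barrier formation (-0.78 and -0.75, mean -0.76, adjusted p = 0.0241 by limma). This call was lost with median spot brightness (adjusted p = 0.056), the deposited table (0.055), separate channels (0.103), processed signals (0.244) and median centring, where the mean was -0.08 (adjusted p = 0.728, limma). Klf5, a basal keratinocyte factor, measured -0.92 and -0.44 and narrowly missed the threshold (adjusted p = 0.0582, limma). Grhl3 measured 0.38 and 0.70 (adjusted p = 0.0927, limma), and Ovol1, Ovol2, Esrp1 and the epidermal master factor Trp63 had means between -0.23 and 0.23. Without adjustment, 2 of the 18 had a p under 0.05 upward and 4 downward.

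The other cadherins were largely at background on these arrays. Of 20 measured, 14 were not above background in any channel, 5 were above it on both arrays, and 0 rose or fell (median -0.11). Cdh13, a cadherin anchored to the membrane by a lipid, measured -0.56 and -0.65 and came closest to the threshold (adjusted p = 0.0578, limma). Cdh26 measured 0.41 and 0.74 (adjusted p = 0.0795, limma). At an unadjusted p under 0.05 there was 1 gene in each direction.

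The proteins that tie cadherins to actin included 3 of 19 measured genes that rose and 0 that fell, with 17 above background and a median of 0.03. Vcl, encoding vinculin of adherens junctions and focal adhesions, measured 1.07 and 0.75 (mean 0.91, adjusted p = 0.0149), while its other probe, also above background, measured 0.43 and 0.37 (adjusted p = 0.168, limma). Ctnnd1, encoding p120-catenin, measured 0.69 and 0.99 (mean 0.84, adjusted p = 0.0201, limma), and its other 2 probes were not above background. Ctnna1, encoding alpha-catenin, measured 1.02 and 0.65 (mean 0.83, adjusted p = 0.0231, limma). For each of the 3 genes both pairs were higher, and each missed the threshold with separate channels (adjusted p = 0.0595 for Vcl, 0.0724 for Ctnnd1 and 0.102 for Ctnna1, limma). Ctnnb1, encoding beta-catenin, had a mean of 0.62 and missed the threshold (adjusted p = 0.0609, limma), and Jup, encoding plakoglobin, had a mean of 0.21. Among 26 tight junction, polarity and epithelial adhesion genes, 25 were above background, 0 rose and 0 fell (3 and 0 without adjustment), and the median was 0.10. Epcam, encoding an epithelial adhesion molecule, measured 0.75 and 0.32 (adjusted p = 0.108, limma), and F11r, encoding a tight junction adhesion protein, 0.68 and 0.56 (adjusted p = 0.0541, limma).

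Mesenchymal effector genes had a median of 0.27, which rested on pair 1 (0.42) and was 0.04 in pair 2. Of 34 measured, 24 were above background, 7 rose and 1 fell. Among those that rose were Cald1 (mean 1.72), encoding the actin-binding protein caldesmon, the matrix genes Vcan (1.48) and Fn1 (1.43), the metalloproteinase genes Mmp11 (1.43) and Mmp2 (1.25), and the secreted glycoprotein gene Fstl1 (1.24). The adjusted p-values of these genes by limma ran from 0.000965 for Vcan to 0.0408 for Fstl1 at the chosen probes. Other probes above background had means of 2.45 for Vcan (adjusted p = 9.44e-05), 1.48 for Cald1 (0.015) and 0.83 for Mmp11 (0.028, limma). A further Vcan probe (mean 0.47) was not above background on both arrays. With only the probes above background tested, Fn1 (adjusted p = 0.0571) and Fstl1 (0.083, limma) missed the threshold. With separate channels, Cald1 (adjusted p = 0.131), Fn1 (0.191) and Fstl1 (0.277, limma) missed it. Fstl1 also missed it with median spot brightness (adjusted p = 0.0519) and the deposited table (0.0502, limma). Not every such gene gave the same value in both pairs. Cald1 measured 2.30 and 1.14, Fn1 2.10 and 0.76 and Fstl1 1.94 and 0.53, and these 3 were higher in pair 1, as the hair follicle markers were, whereas Mmp2 measured 1.25 and 1.26. The part of follicle content in these values was not tested. Thy1, encoding a surface glycoprotein, fell (-1.37 and -1.22, mean -1.30, adjusted p = 0.002 by limma), but missed the threshold with separate channels (0.0858). Acta2 and Tagln, the smooth muscle actin and transgelin genes of contractile cells, had means of 0.38 and 0.40 and were not called.

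TGF-beta signalling, an inducer of Snai1, Snai2 and Zeb genes in many epithelia, moved in both directions. Of 24 genes measured, 21 were above background, 3 rose, 4 fell and the median was 0.05. Thbs1, encoding thrombospondin 1, an activator of latent TGF-beta, rose most (1.97 and 2.13, mean 2.05, adjusted p = 0.000176 by limma). Smad3 (mean 1.40, adjusted p = 0.00484) and Smad4 (mean 0.67, adjusted p = 0.0433 by limma), encoding signal transducers, also rose at their chosen probes. The Smad4 call was lost with median spot brightness (adjusted p = 0.0575), the deposited table (0.0564) and separate channels (0.159, limma). The other probes of Smad3 and Smad4 measured 0.47 and 0.54 and were not called (adjusted p = 0.114 and 0.119, limma). Tgfbi, a target gene of the pathway that encodes a matrix protein, fell by 2.17 on the log2 scale (adjusted p = 0.00113, limma). Ltbp3 (-1.30) and Ltbp1 (-1.27), which encode proteins that store latent TGF-beta, and the co-receptor gene Tgfbr3 (-1.05) fell as well, with adjusted p-values of 0.0032, 0.00522 and 0.00899 by limma. Of these, Ltbp3 (adjusted p = 0.0893) and Tgfbr3 (0.0542, limma) missed the threshold with separate channels.

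The other intermediate filaments and vimentin partners gave no call in 10 measured genes (1 in each direction at an unadjusted p under 0.05). The muscle, glial and neuronal filament genes Des, Gfap, Prph, Nefl, Nefm and Nefh were not above background in any channel. Those above it on both arrays were Synm (mean 0.59, adjusted p = 0.066), Nes (0.30, adjusted p = 0.343) and Plec (-0.39, adjusted p = 0.198 by limma), encoding synemin, nestin and the linker protein plectin.

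**Figure D5:**
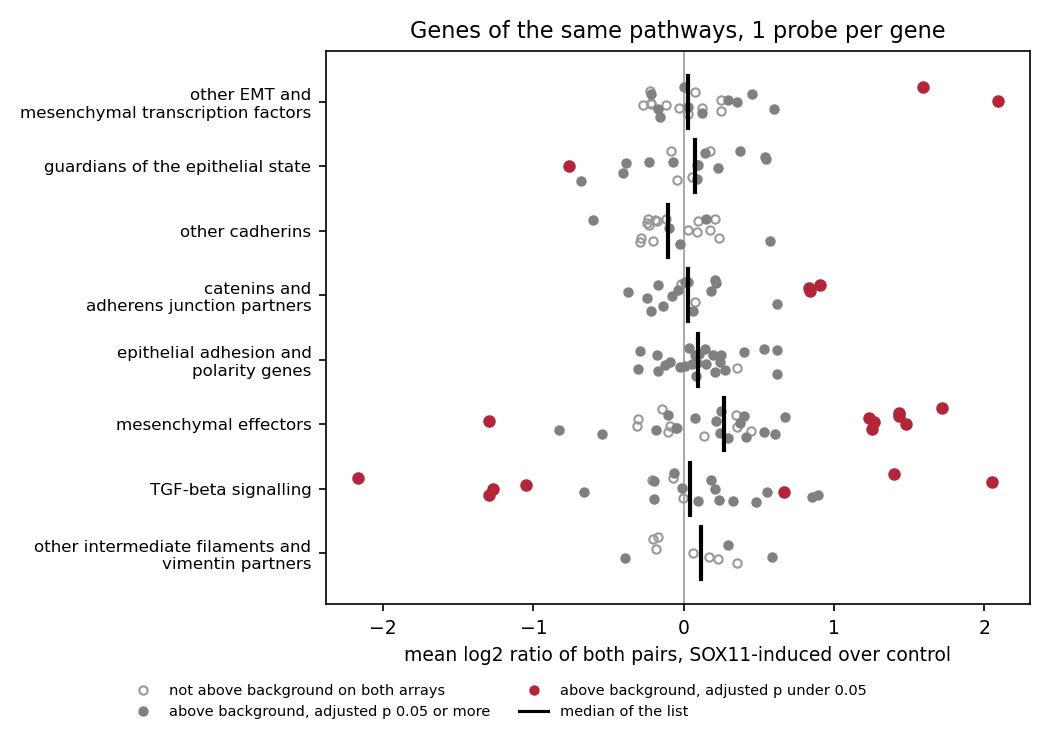
Mean log2 ratio of SOX11-induced over control epidermis (x axis) for the genes of 8 lists (y axis), 1 probe per gene, with red points for genes above background that passed an adjusted p under 0.05, grey points for others above background, hollow points for genes not above background on both arrays and a black line for the median of each list. The called genes lie mainly among mesenchymal effectors and TGF-beta signalling, and the medians lie between -0.11 and 0.27.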

How the data were processed

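Mouse 2-colour arrays of 2 littermate pairs were analysed. The authors deposited spot and background intensity values in scanner units, per the file headers from Agilent Feature Extraction 10.7.3.1 with positions on mm9, and a table of log2 ratios of both arrays. That deposited log2 table was rebuilt from median spot brightness (correlation 1 and slope 1 on each array over 55819 probes). The study's methods also describe a colour swap and a ComBat step. The labels show the same dye orientation on both arrays, and the match needed no such step.

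Mean spot brightness was corrected with normexp (offset 16) on the median background, followed by loess, in limma 3.58.1 (R 4.3.3). Control spots and outlier spots (194 and 186) were left out and spots of a probe averaged. An intercept was fitted to the 2 ratios with eBayes (prior degrees of freedom 8.14, prior SD 0.223) and Benjamini-Hochberg adjustment over 55676 probes, after testing the fit on simulated data. Each ratio is already the difference within a littermate pair. A probe was above background where at least 0.5 of its spots were marked so by the scanner software. The brightest probe stood for a gene in the lists. Channel signals were taken after loess and Aquantile scaling, so the Cdh2 fold with a raised control is open to dye bias. The number of arrays limits the precision.

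All members were named with every probe. From each pathway list, called genes above background were named (at most 4 in each direction, by size), along with defining genes that were not called, and the further ones given for mesenchymal effectors and those near the threshold were chosen after their values were seen. Nearest genes were taken by distance over both pairs. The members and lists were chosen with earlier results of these data known. Alternatives were a larger offset (50), median spot brightness, processed signals, median centring, probes above background alone, an intensity trend, the deposited table, separate channels and leaving out each array. Control spots at weight 0 in loess were added after seeing the data. Probe sequences came from the array files, and RefSeq promoter windows (GRCm38.p6) were held for 5 of the 10 genes. 1 gene called in the mesenchymal effector list is not reported here by name. The plots were made with matplotlib.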

Additional observations from a re-analysis of the deposited data

How the results depend on the processing

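Snai2 stayed higher under all 11 alternatives tried (0.96 to 1.67) and past the threshold in each that gave a test except processed signals (0.98, adjusted p = 0.244, limma). With each array left out in turn, which leaves no test, its value was 0.96 to 1.11. Treating the channels as separate samples, with no replicate block, gave an adjusted p of 0.032 in limma. No other paired analysis was possible because each ratio is itself a within-pair difference. Median centring moved the median of the probes above background to 0.53. Read against that shift, Snai2 (1.67), Cdh3 (0.88, adjusted p = 0.003, limma) and Vim (0.74, adjusted p = 0.00569, limma) were the 3 members called. The same setting called 12565 of all 55676 probes higher. With both pairs, signs turned for Twist1 (-0.030 with processed signals and -0.24 with median centring), for the Zeb2 probe at 44965914 (0.26) and for Vim (-0.015), both with processed signals, and the cause was not tested. Pair 1 alone, without pair 2, also turned the sign for Twist1 (-0.10), Twist2 (0.05), Zeb1 (0.03) and the Zeb2 probes at 44840038 (0.53) and 44842774 (-0.00015).

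Median centring gave 7 other EMT factors higher and 2 lower, 9 guardians of the epithelial state higher and 0 lower, 1 other cadherin higher and 3 lower, 10 catenins and adherens junction partners higher, 21 epithelial adhesion genes higher, 19 mesenchymal effectors higher and 3 lower, 13 TGF-beta genes higher and 2 intermediate filament genes higher. With processed signals 0 members and 0 genes of any list were called in either direction. The offset of 50 gave 4 other EMT factors higher, 1 guardian of the epithelial state higher and 2 lower, 1 other cadherin lower, 3 epithelial adhesion genes higher, 2 mesenchymal effectors lower, 6 TGF-beta genes higher and 1 intermediate filament gene higher. The intensity trend gave 1 guardian of the epithelial state higher and 2 lower, 1 other cadherin higher and 1 lower, 3 epithelial adhesion genes higher, 2 mesenchymal effectors lower, 7 TGF-beta genes higher, and 1 intermediate filament gene higher and 1 lower. Testing only probes above background gave 1 other cadherin lower, 1 epithelial adhesion gene higher and 1 intermediate filament gene higher. Separate channels gave 0 guardians of the epithelial state lower, 0 catenins and adherens junction partners higher, 3 mesenchymal effectors higher and 0 lower and 2 TGF-beta genes lower. Median spot brightness and the deposited series table each gave 0 guardians of the epithelial state lower. Over all 55676 probes, the fit with offset 16 called 1614 higher and 754 lower. The offset of 50 called 2847 and 1520, the intensity trend 2934 and 1680, and separate channels 510 and 131. Median spot brightness called 1272 and 580, the deposited log2 ratios 1305 and 604, and median centring 12565 and 5410. Of the 21782 probes above background tested alone, 1693 were higher and 823 lower. Whether any list moved more than the array as a whole was not tested. Of the 21 called genes named from the lists, 21 missed the threshold with processed signals and 12 with separate channels. With 8 of 13 member probes at background everywhere, signal over background limits what these arrays can show for Snai1, Twist1, Twist2, Zeb1, Zeb2 and Cdh1.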
